A study of Mus musculus with 2 samples.

Results

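The genes described here mark phagocytes that take up damaged tissue, or carry out efferocytosis, the clearance of dying cells. The list names 10 genes of the 32285 in the matrices: Spp1, Gpnmb, Trem2, Lgals3, Cd9, Clec7a, Cst7, Axl, Mertk and Gas6. They were chosen by name, and 9 of the 10 were measured; Clec7a was not analysed here. Counts of unique molecular identifiers (UMIs, 1 per captured mRNA molecule) were read in 2 single-cell RNA libraries of CD45-sorted leukocytes from mouse RPE and choroid, the pigment epithelium behind the photoreceptors and the vascular layer beneath it.

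The KO library came from mice labelled IL-17RA CKO, a conditional knockout of the interleukin-17 receptor gene Il17ra, and the flox library from mice labelled IL-17ra fl, with that gene floxed. All mice had received NaIO3 (sodium iodate, an oxidant toxic to the RPE) at 20 mg/kg by intraperitoneal injection. The Cre driver, the deleted exons, the interval after NaIO3, the age and sex of the mice and the number of mice per library were not stated in the labels. With 1 library per group no difference could be tested between genotypes. Every interval below covers counting error only, and every ratio describes these 2 libraries. The counting software, Cell Ranger, was version 7.0.1 for the KO matrix and version 4 for the flox matrix. That difference cannot be told apart from genotype in any ratio.

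A dying cell exposes phosphatidylserine on its surface, and Gas6 is a soluble bridge between that lipid and the receptor kinases Axl and Mertk. Mertk is also the receptor by which the RPE clears shed photoreceptor outer segments. Trem2 is a lipid-sensing receptor that signals through the adaptor Tyrobp, and in mouse microglia it is needed for the programme of damage-associated genes in which Spp1 (osteopontin, a secreted integrin ligand), Gpnmb (a membrane glycoprotein of phagosomes and lysosomes), Cst7 (cystatin F, an inhibitor of lysosomal cathepsins), Cd9 (a tetraspanin) and Axl increase. Lgals3 encodes galectin-3, a sugar-binding protein of monocytes and macrophages that gathers at damaged lysosomes.

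Barcodes with at least 1000 UMIs and under 10% mitochondrial UMIs were sorted into 7 gates by UMIs of a few marker genes, and a barcode could pass several gates. The kept barcodes numbered 3982 in the KO library and 3420 in the flox library, with 35816512 and 35081392 UMIs. The macrophage gate (C1qa, C1qb and C1qc, at least 3 UMIs together) held 64 KO and 61 flox barcodes, with medians of 10721 and 12528 UMIs. The classical monocyte gate held 312 KO and 416 flox barcodes and the nonclassical monocyte gate 523 and 545. The cDC1 gate (type 1 dendritic cells) held 64 KO and 97 flox barcodes and the cDC2 gate 150 and 203. The NK gate held 276 KO and 211 flox barcodes and the T gate 1663 and 1378. A B cell gate of 978 KO and 636 flox barcodes served as a comparison that should lack most of these genes.

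Il17ra itself had 123 CPM (UMIs of the gene scaled to 1000000 UMIs of the gate) in the KO library and 132 CPM in the flox library, over all kept barcodes. A 3' tag may lie outside the deleted part, so these levels are no check of the deletion. Among kept barcodes, 1565 KO and 2248 flox carried Xist without Y-linked UMIs, and 1379 KO and 537 flox the reverse, so both libraries mixed female and male cells in unequal shares. Of the macrophage-gate barcodes, 29 KO and 30 flox also passed another gate. Barcodes in more than 1 of the 7 gates numbered 250 KO and 289 flox, and 3 barcode sequences occurred among the kept cells of both libraries. Of the 8 gates, B included, each one's marker list was highest in its own gate in both libraries, except that the cDC2 list summed to 486 CPM in the KO cDC2 gate and to 572 CPM in the KO macrophage gate. Within the macrophage gate, the 7 macrophage markers summed to 2939 CPM in KO and 2704 CPM in flox. The 6 microglia markers there summed to 2130 CPM in KO and 1051 CPM in flox, the 5 border macrophage markers to 450.2 and 105 CPM, and the 5 classical monocyte markers to 1406 and 2437 CPM. The 5 T cell markers summed to 94.3 CPM in KO and 4.87 CPM in flox macrophage-gate barcodes. The part of this mixture of cells in the ratios below was not tested, beyond the sub-gates given for each gene.

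The promoters of 3 genes are shown because Spp1 and its companions Gpnmb and Trem2 went opposite ways in the macrophage gate (below). Each is the 250 bases before the RefSeq start on the plus strand of GRCm38.p6: chr5:104434861-104435110 for Spp1, chr6:49036268-49036517 for Gpnmb and chr17:48346151-48346400 for Trem2. Capitals mark matches to GAGGAAGT (a PU.1 type ETS motif of myeloid genes) or TGANTCA (AP-1).
Spp1: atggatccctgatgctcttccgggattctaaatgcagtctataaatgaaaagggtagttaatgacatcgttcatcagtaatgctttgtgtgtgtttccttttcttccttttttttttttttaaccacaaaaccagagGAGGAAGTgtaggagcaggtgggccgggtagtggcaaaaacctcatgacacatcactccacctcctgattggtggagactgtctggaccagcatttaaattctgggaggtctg
Gpnmb: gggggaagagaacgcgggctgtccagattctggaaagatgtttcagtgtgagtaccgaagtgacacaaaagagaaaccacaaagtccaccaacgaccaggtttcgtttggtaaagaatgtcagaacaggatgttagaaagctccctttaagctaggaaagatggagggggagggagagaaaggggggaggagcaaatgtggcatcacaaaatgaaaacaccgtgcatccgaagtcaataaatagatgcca
Trem2: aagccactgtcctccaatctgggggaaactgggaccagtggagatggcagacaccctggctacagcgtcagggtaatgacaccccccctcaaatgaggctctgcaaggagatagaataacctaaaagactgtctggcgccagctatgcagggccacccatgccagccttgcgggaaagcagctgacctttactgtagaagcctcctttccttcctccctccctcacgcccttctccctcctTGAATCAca

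Windows for all 9 analysed genes, 10 in total because Spp1 has 2 starts, were searched on both strands for these 2 motifs and for the E-box CACGTG of lysosomal gene promoters. The GAGGAAGT of Spp1 lay 113 bases before the start. The TGAATCA of Trem2 lay 9 bases before its start. Of 32851 promoter windows of the same length, 2.44% held GAGGAAGT, 6.75% TGANTCA and 6.02% CACGTG, and the other 8 windows held none of the 3. The matches do not overlap, and they describe letters, not binding.

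Of the 9 genes, 7 had their highest level in the macrophage gate in both libraries, and the exceptions were Lgals3 and Cst7. The heat map of levels by gate shows this concentration in the first column of each library. All values there are CPM per gate, a level within the gate's own UMIs, and they are compared across gates for 1 gene at a time.

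**Figure D1:**
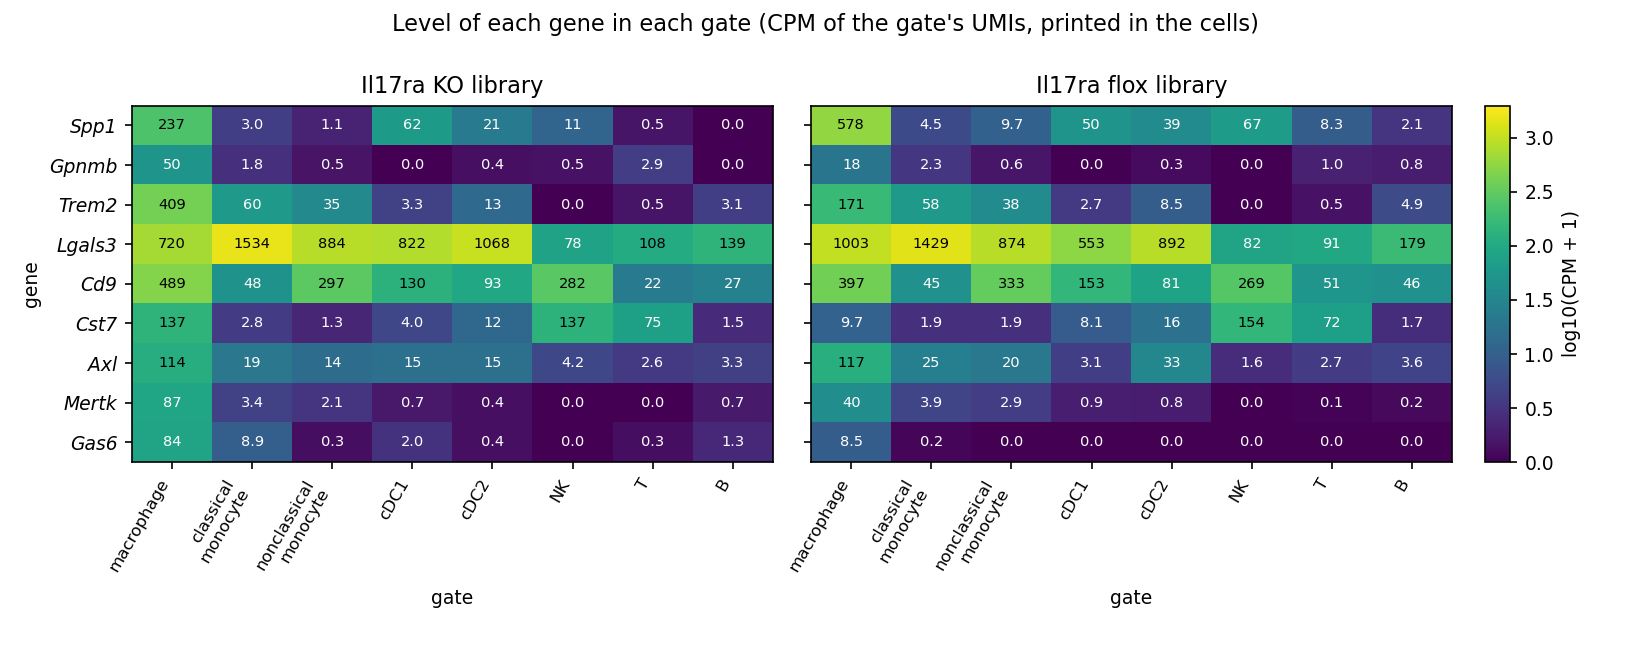
Level of each gene (rows) in each gate (columns), with the KO library on the left and the flox library on the right; numbers are CPM and colour is log10(CPM + 1). The macrophage column is brightest for most genes, Lgals3 is bright over all myeloid gates, and Cst7 over NK and T.

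Trem2 (chromosome 17, 48346401 to 48354147, in the mm10 build) graded across the myeloid gates in the same order in both libraries. In KO its level was 409 CPM in macrophages, 59.8 in classical monocytes, 35.1 in nonclassical monocytes and 12.5 in cDC2. In flox it was 171 CPM in macrophages, 57.6 in classical monocytes, 37.6 in nonclassical monocytes and 8.51 in cDC2. Each of these neighbouring gates differed beyond counting error in both libraries, and no Trem2 UMI was found in either NK gate. Trem2 made up 27.7 CPM of flox free RNA, so the cDC2 levels lay below it and the nonclassical levels not far above it. A Trem2 UMI was present in 59.4% of KO and 60.7% of flox macrophage-gate barcodes, against 0.818% of KO and 1.73% of flox B-gate barcodes, whose median depths were 6458.5 and 6242 UMIs.

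Mertk (chromosome 2, 128698956 to 128802894) and Gas6 (chromosome 8, 13465374 to 13494490), the receptor and its bridge, were low outside the macrophage gate. Mertk had 87.2 CPM in KO and 40.2 CPM in flox macrophages, and in both libraries the next gate, classical monocytes, had 3.45 CPM (KO) and 3.90 CPM (flox). Of 73 KO and 50 flox Mertk UMIs in all kept barcodes, 61 and 33 lay in the macrophage gate. No Mertk UMI was found in the KO or flox NK gates nor in the KO T gate, and 1 in the flox T gate. Gas6 had 84.3 CPM in KO and 8.53 CPM in flox macrophages.

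Axl (chromosome 7, 25757273 to 25788705), the other Gas6 receptor, was found in more gates, in part at levels near its 14.3 CPM in flox free RNA. Its level in macrophages was 114 CPM in KO and 117 CPM in flox. In KO the next 4 gates, namely classical monocytes, cDC2, cDC1 and nonclassical monocytes, lay between 13.9 and 19.1 CPM and did not differ from their neighbours beyond counting error. In flox, cDC2 had 33.0 CPM, classical monocytes 25.4 CPM and nonclassical monocytes 19.9 CPM, each apart from the next, while cDC1 had 3.14 CPM. The free RNA level thus lay near these KO gates and above flox cDC1.

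Spp1 (chromosome 5, 104435118 to 104441050) was highest outside the macrophage gate in cDC1 in KO, at 62.2 CPM, and in NK in flox, at 66.6 CPM. A Spp1 UMI was present in 28.1% of KO and 29.9% of flox cDC1 barcodes, in 20.3% of KO and 32.8% of flox macrophage-gate barcodes, and in no KO and 1.10% of flox B-gate barcodes. Positive barcodes of the macrophage gate held on average 12.8 Spp1 UMIs in KO and 23.7 in flox, and those of the cDC1 gate 5.17 in KO and 3.86 in flox. Gpnmb (chromosome 6, 49036546 to 49070929) was rare, found in 27 KO and 26 flox barcodes in all.

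Lgals3 (chromosome 14, 47367751 to 47386160) was abundant in every myeloid gate and highest in classical monocytes, at 1534 CPM in KO and 1429 CPM in flox. It was found in 97.1% of KO and 98.3% of flox classical monocytes. In the flox barcodes of 100 UMIs or fewer, which hold mostly free RNA, Lgals3 made up 532 CPM, so its 78.1 to 179 CPM in the NK, T and B gates of both libraries lay below the free RNA level.

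Cd9 (chromosome 6, 125460266 to 125494791) was shared by macrophages, nonclassical monocytes and NK cells. Its KO levels were 489 CPM in macrophages, 297 CPM in nonclassical monocytes and 282 CPM in NK, the last pair not apart beyond counting error. Its flox levels were 397, 333 and 269 CPM in the same gates, each apart from the next. Cst7 (chromosome 2, 150570415 to 150578944) was a gene of cytotoxic cells in these libraries, with 137 CPM in KO and 154 CPM in flox NK cells, and 74.8 CPM in KO and 72.3 CPM in flox T cells. The KO macrophage gate, at 137 CPM, stood level with KO NK cells, whereas the flox macrophage gate had 9.75 CPM.

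By the rule of likeness, the Pearson r of log2(CPM + 1) over 16 points (8 gates including B, both libraries), Trem2 was most like Lpl (r = 0.97), Mertk most like Mir99ahg (r = 0.97) and Gpnmb most like Olfml3 (r = 0.96). Lgals3 was most like Trib1 (r = 0.98), Gas6 most like Slco2b1 (r = 0.93), Cst7 most like Tjp1 (r = 0.92), Spp1 most like Tuba1b (r = 0.90) and Cd9 most like Luzp1 (r = 0.85). Among the members, Trem2 and Axl were the closest pair (r = 0.90), followed by Trem2 and Mertk (r = 0.89), while Spp1 reached no more than r = 0.69 with any other, that being Cd9. The points share libraries and depth, and gates share barcodes, so these values describe patterns only.

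In the macrophage gate, 5 of the 9 genes were higher in KO than in flox (Cst7, Gas6, Gpnmb, Trem2 and Mertk), 1 was lower (Spp1), and 3 were not called (Lgals3, Cd9 and Axl). A ratio was called when it passed 1.5-fold, its 95% counting interval left out 1, and both libraries together held at least 20 UMIs. By the same rule 9.6% of the 7450 genes measured in this gate were called higher and 7.49% lower. The median log2 ratio of the 9 genes was 1.11, with the medians of their interval limits at 0.48 and 1.56, against 0.03 over all genes measured.

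**Figure D2:**
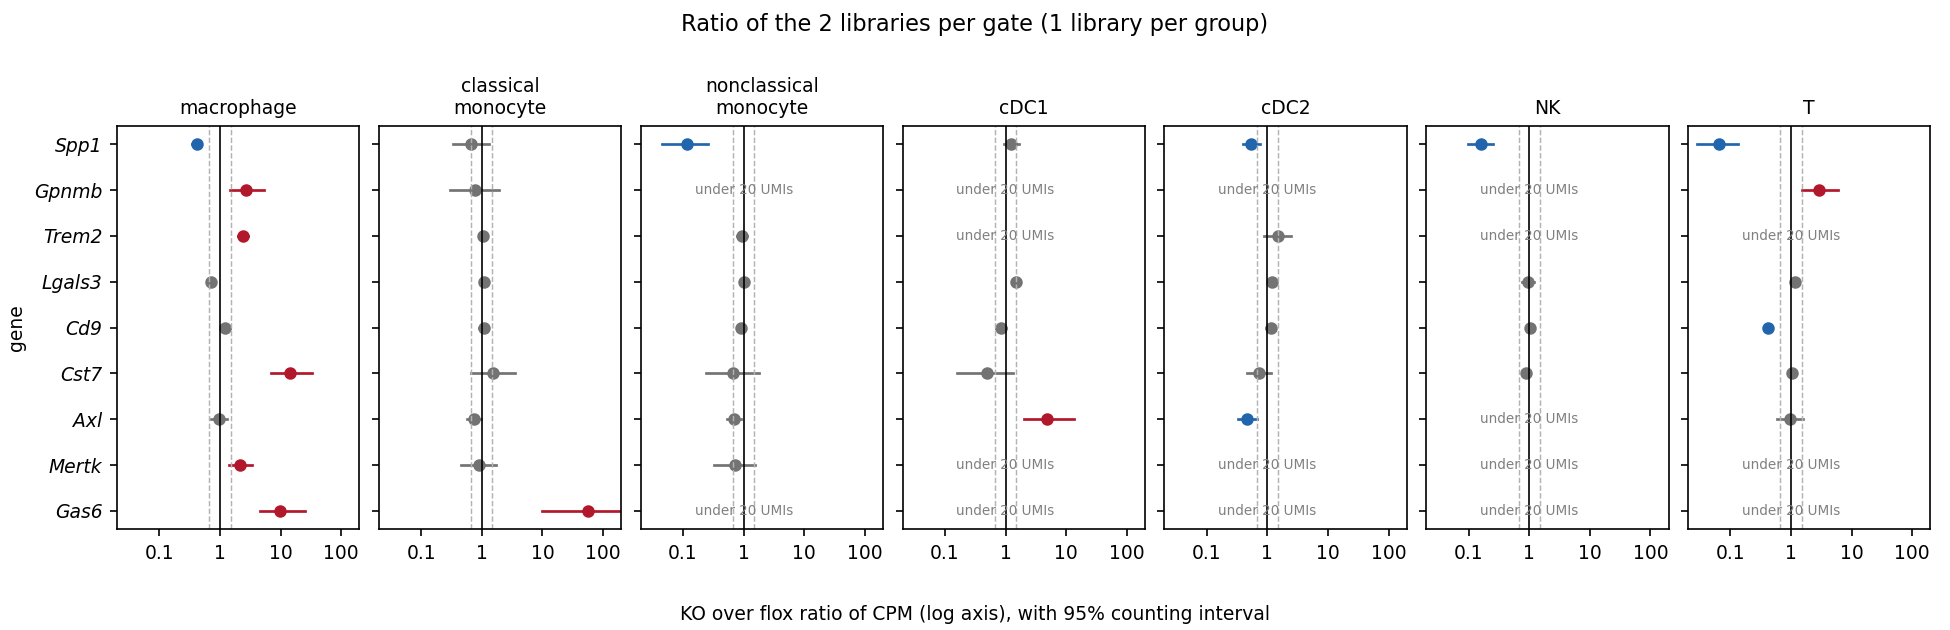
Ratio of KO over flox CPM (log axis) for each gene in each of the 7 gates, with 95% counting intervals; red points were called higher, blue points lower and grey points not called, dashed lines mark 1.5-fold, and the interval of Gas6 in classical monocytes runs past the axis. The macrophage panel has 5 red points and 1 blue one, and blue points for Spp1 recur in nonclassical monocytes, cDC2, NK and T.

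Gas6, the bridging ligand, had 59 UMIs in KO macrophage-gate barcodes and 7 in flox, and its ratio was 9.88 (4.51 to 25.7). It was found in 20 of 64 KO barcodes and in 7 of 61 flox barcodes, where each held a single UMI. The KO barcode richest in it held 18 UMIs, and without the highest barcode of each library the ratio was 8.01. In the macrophage-gate barcodes that passed no other gate the ratio was 4.02 (1.59 to 12.1), less by over 1.5-fold.

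The receptors differed from each other. Mertk had 61 UMIs in KO and 33 in flox, a ratio of 2.17 (1.40 to 3.42), and was found in 25 of 64 KO and 8 of 61 flox barcodes. Axl had 80 UMIs in KO and 96 in flox, a ratio of 0.977 (0.717 to 1.33), so a difference beyond 1.5-fold in either direction lay outside its interval. Trem2 had 286 UMIs in KO and 140 in flox, a ratio of 2.40 (1.95 to 2.95), although about equal shares of barcodes held it. The Trem2 difference lay in the UMIs per positive barcode. With each barcode thinned to 1000 UMIs, Trem2 was found in 37.5% of KO and 19.7% of flox macrophage-gate barcodes. Among female barcodes the Trem2 ratio was 6.22 (4.08 to 9.73), and among male barcodes, 21 KO and 6 flox, it was 1.14 (0.673 to 2.005) and no longer called.

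Cst7, the cathepsin inhibitor, had the largest ratio of the 9 in this gate, with 96 UMIs in KO and 8 in flox, or 14.1 (6.86 to 33.5). A single KO barcode held 51 of the 96 UMIs; it carried 615 C1q UMIs, 26 of Trem2 and 50 of Cd9. Without the highest barcode of each library the ratio was 10.6 (4.203 to 34.1). The 4 KO barcodes richest in Cst7 held 51, 13, 6 and 5 UMIs of it, 0 Cd3d and Cd3e UMIs and between 101 and 615 C1q UMIs. Over the whole gate, T markers summed to 94.3 CPM in KO and 4.87 CPM in flox, and NK markers to 44.3 CPM in KO and 7.31 CPM in flox; their part in the Cst7 ratio was not tested.

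Gpnmb had 35 UMIs in 6 KO barcodes and 15 UMIs in 2 flox barcodes, a ratio of 2.74 (1.46 to 5.39). With a minimum of 2000 UMIs per barcode the ratio was 1.95 (0.989 to 3.98) and no longer called. Spp1 had 166 UMIs in KO and 474 in flox, a ratio of 0.411 (0.342 to 0.491). The 3 KO barcodes richest in Spp1 held 57, 36 and 28 UMIs, and the 3 richest flox barcodes 113, 108 and 77, so the flox barcodes were higher but few barcodes set both sums.

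The direction for Spp1 differed in female barcodes, where a single KO barcode set the KO sum. In these barcodes, 21 KO and 25 flox, Spp1 was higher in KO, with 62 UMIs against 34 in flox and a ratio of 3.66 (2.37 to 5.74). The female KO barcode with 15 Gpnmb UMIs held 57 of those 62 UMIs, and the female ratio without it was not computed. In barcodes with no sex call, 22 KO and 30 flox, it was lower in KO, with 99 UMIs against 440 in flox, and this class held most of the Spp1 of both libraries. With barcodes thinned to 1000 UMIs the ratio was 0.673 (0.455 to 0.988), just short of 1.5-fold. The Cd9 ratio over the whole gate was 1.23 (1.05 to 1.44), yet 3.34 (2.52 to 4.46) in female and 4.98 (1.83 to 19.0) in male barcodes, the unassigned barcodes having 815 CPM in KO and 1053 CPM in flox.

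Lgals3 had 504 UMIs in KO and 823 in flox macrophage-gate barcodes, a ratio of 0.718 (0.642 to 0.803), lower beyond counting error but short of 1.5-fold. In macrophage-gate barcodes in no other gate its ratio was 0.464 (0.376 to 0.569), past the threshold.

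The macrophage gate was divided by microglia markers (P2ry12, Tmem119, Siglech, Gpr34 and Sall1, at least 2 UMIs) and by border macrophage markers (Mrc1, Lyve1, Cd163, Folr2 and Cbr2, at least 3 UMIs). The microglia sub-gate held 19 KO and 21 flox barcodes, the border sub-gate 7 and 4, both sub-gates together 11 and 3, and neither 27 and 33. Trem2 and Mertk were highest where microglia markers were present, Gas6 where both marker sets were, and Lgals3 in KO where microglia markers were absent.

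**Figure D3:**
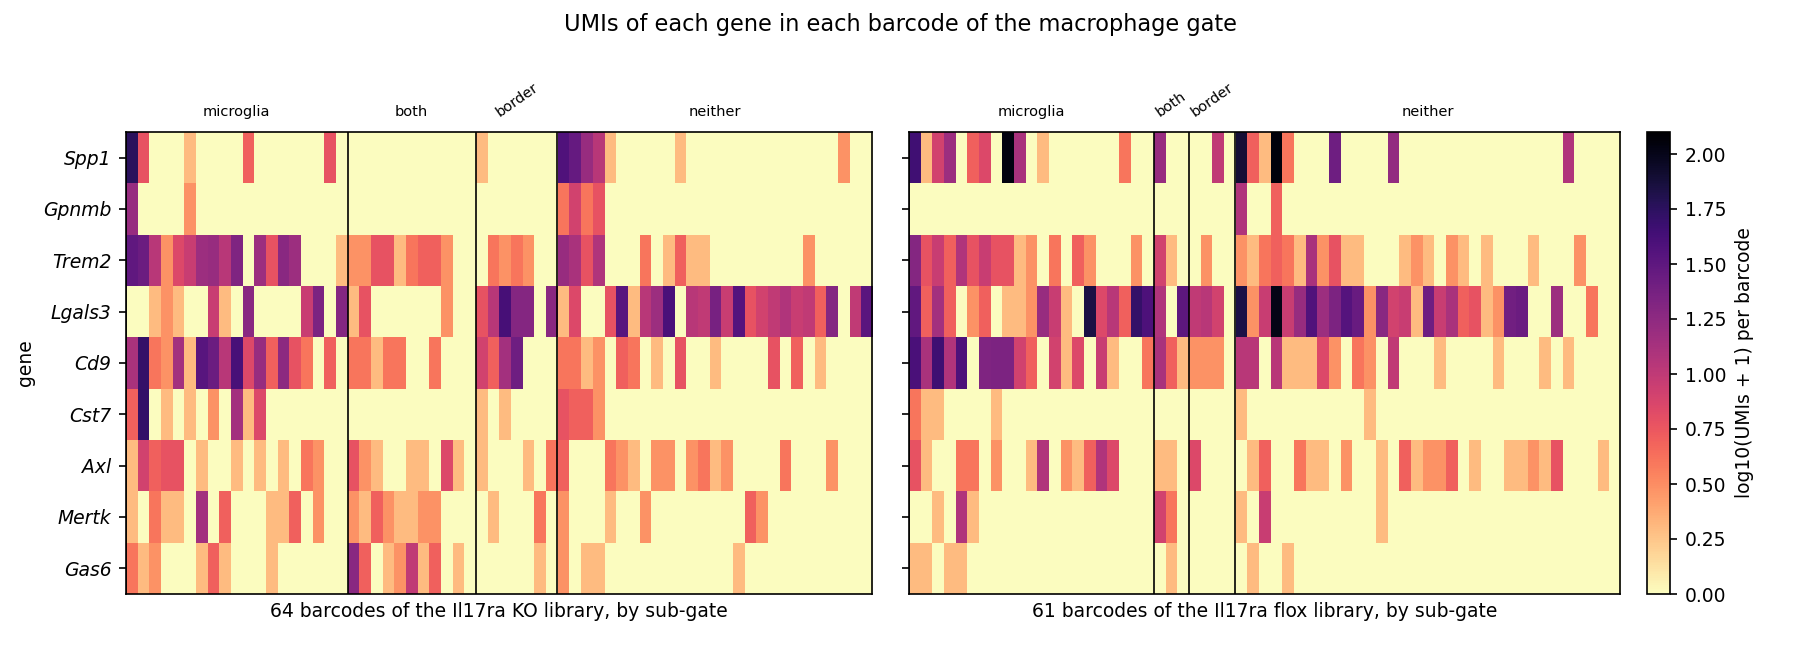
UMIs of each gene (rows) in every barcode of the macrophage gate (columns), KO on the left and flox on the right, ordered by sub-gate, with colour as log10(UMIs + 1). Gas6 is concentrated in the KO barcodes that pass both sub-gates, while dark Spp1 barcodes sit in the microglia and neither sub-gates of each library.

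In the microglia sub-gate, Trem2 had 930.2 CPM in KO and 266 CPM in flox, a ratio of 3.50 (2.69 to 4.58), and Mertk 149 CPM in KO and 41.1 CPM in flox, a ratio of 3.63 (1.85 to 7.56). Cst7 had 79 UMIs in KO and 6 in flox there, a ratio of 20.1 (8.81 to 56.3). A single KO barcode held 51 of the 79 and another held 13. T markers there summed to 125 CPM in KO and 3.16 CPM in flox, and NK markers to 14.5 CPM in KO and 6.33 CPM in flox; their part in the ratio was not tested. Gpnmb had 17 UMIs in KO, 15 of them in 1 barcode, and 0 in flox, where 0 counts allow up to 9.49 CPM. Cd9 was called higher as well, at 1.52 (1.27 to 1.83). Spp1 was again lower in KO, with 347 CPM against 633 CPM in flox, a ratio of 0.548 (0.413 to 0.721). The KO barcode with 15 Gpnmb UMIs held 57 of the 72 KO Spp1 UMIs, and 1 flox barcode held 108 of the 200 flox ones. Lgals3 was lower in KO with a ratio of 0.463 (0.355 to 0.597). The 6 microglia markers themselves summed to 5345 CPM in KO and 2139 CPM in flox in this sub-gate, and the classical monocyte markers to 588 CPM in KO and 1576 CPM in flox, so its barcodes differed in more than these genes; their part in the ratios was not tested.

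In the border sub-gate, of 7 KO and 4 flox barcodes, Lgals3 was called the other way, higher in KO at 3.12 (2.02 to 4.99) on 112 UMIs in KO and 26 in flox, and Cd9 was higher at 5.92 (2.53 to 16.9). Border macrophage markers there summed to 486 CPM in KO, with no Lyve1, Folr2 or Cbr2 UMI, and to 657 CPM in flox. The cDC2 markers summed to 1496 and 1077 CPM, classical monocyte markers to 2154 and 2602 CPM, and T markers to 334 and 0 CPM. The sub-gate thus held other cell markers too, and their part in the ratios was not tested. In barcodes that passed both sub-gates Mertk had 171 CPM in KO and 219 CPM in flox, a ratio of 0.780 (0.328 to 1.94). Lgals3 was lower there at 0.0991 (0.0402 to 0.214), on 8 UMIs in KO and 42 in flox. A single flox barcode, which also passed another gate, held 31 of those 42 UMIs.

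Of the 59 KO Gas6 UMIs, 40 lay in the 11 barcodes that passed both sub-gates, at 456 CPM, and the 3 flox barcodes of that kind held 1 Gas6 UMI, at 21.9 CPM; the ratio was 20.8, with a counting interval of 3.53 to 842. In barcodes that passed neither sub-gate, Spp1 was again lower in KO (ratio 0.475, 0.371 to 0.606), Trem2 was 1.53 (1.01 to 2.31), and Lgals3 reached 1018 CPM in KO and 1293 CPM in flox.

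Most KO Spp1 UMIs lay in the few barcodes with Gpnmb. All 6 KO barcodes with a Gpnmb UMI, singled out after their values were seen, also held Spp1, Cst7, Trem2 and Cd9, and contained 147 of the 166 Spp1 UMIs of the gate (88.6%). They contained 20 Cst7 UMIs, and the other 58 KO barcodes 76. Their C1q UMIs ran from 43 to 334 and their median depth was 2399 UMIs, against 11142.5 in the other 58. Both flox barcodes with Gpnmb also held Spp1, Trem2 and Cd9, 1 of them Cst7, and contained 190 of the 474 Spp1 UMIs (40.1%). The other 59 flox barcodes had a further 284 Spp1 UMIs, or 353 CPM, whereas the other 58 KO barcodes had 19, or 27.99 CPM.

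Spp1 and Gas6 occurred together in 5 KO and 5 flox barcodes. Mertk and Gas6 occurred together in 14 of 64 KO barcodes, where the product of their shares gives 7.81, and in 2 of 61 flox barcodes, where it gives 0.918. At the deposited depth the median barcode held 3 of the 9 genes in both libraries, and 16 KO and 13 flox barcodes held at least 5. At 1000 UMIs per barcode, 14 of 64 KO (21.9%) and 12 of 61 flox (19.7%) barcodes held at least 3, and 4 KO and 0 flox barcodes at least 5.

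In classical monocytes, 1 of the 9 genes was called higher in KO and none lower, where 4.09% of all measured genes were higher and 3.56% lower. The called gene was Gas6, with 44 UMIs in KO and 1 in flox, a ratio of 57.2 with a counting interval of 9.74 to 2309. Of the 44 UMIs, 36 came from barcodes that also passed the macrophage gate. The other 8 genes were not called. They ranged from Spp1 at 0.672 (0.335 to 1.295) to Cst7 at 1.52 (0.651 to 3.59), with Trem2 at 1.04 (0.888 to 1.21), Lgals3 at 1.07 (1.04 to 1.11) and Cd9 at 1.07 (0.898 to 1.27). Axl, at 94 UMIs in KO and 163 in flox, had a ratio of 0.749 (0.575 to 0.972). The median log2 ratio was 0.06 for the 9 genes and 0.04 for all genes. RPE markers summed to 2883 UMIs in this KO gate and 26 in flox, 99.4% of the KO UMIs lying in 2 barcodes; without barcodes of 5 or more RPE marker UMIs the Gas6 ratio was 51.1 (8.64 to 2069).

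In nonclassical monocytes, 7 of the 9 genes were measured, 1 was called lower in KO and none higher, where 3.79% of all genes were lower and 2.6% higher. That gene was Spp1, with 7 UMIs in KO and 66 in flox, a ratio of 0.117 (0.0452 to 0.254). Of these, 2 KO and 35 flox UMIs came from barcodes also in the macrophage gate, and without those barcodes the ratio was 0.176 (0.0534 to 0.456). A Spp1 UMI was present in 0.574% of KO and 2.20% of flox nonclassical barcodes, both above the low B-gate shares given above. The richest flox barcodes held 16, 15, 12 and 9 UMIs. The levels of the gate, 1.13 CPM in KO and 9.66 CPM in flox, lay below the 42.6 CPM of Spp1 in flox free RNA. The part of free RNA in the ratio was not tested. Axl again lay below 1 without being called, at 0.696 (0.525 to 0.918). Trem2 was at 0.933 (0.775 to 1.12) and Lgals3 at 1.01 (0.975 to 1.05). The median log2 ratio was -0.47, against 0.02 for all genes.

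The dendritic cell gates differed from each other. In cDC1, 5 of the 9 genes were measured, and Axl was the 1 called higher in KO, where 5.28% of all genes were higher; none was lower, where 3.96% were. Axl had 23 UMIs in 6 KO barcodes and 7 UMIs in 6 flox barcodes, a ratio of 4.90 (2.03 to 13.5). Its levels were 15.4 CPM in KO, near the 14.3 CPM of Axl in flox free RNA, and 3.14 CPM in flox, below it. The part of free RNA in the ratio was not tested. Of the 23 UMIs, 9 came from 1 barcode and 5 from barcodes also in the macrophage gate. RPE markers summed to 202 UMIs in this KO gate and 3 in flox, 99.01% of the KO UMIs in 1 barcode; without barcodes of 5 or more RPE marker UMIs the Axl ratio was 5.02 (2.09 to 13.9). Spp1 had 93 UMIs in KO and 112 in flox, a ratio of 1.24 (0.930 to 1.64), and Lgals3 had 1230 in KO and 1234 in flox, a ratio of 1.49 (1.37 to 1.61) just under the threshold.

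In cDC2, 6 of the 9 genes were measured, 2 were called lower in KO and none higher, where 3.49% of all genes were lower and 4.41% higher. Axl had 42 UMIs in KO and 124 in flox, a ratio of 0.469 (0.322 to 0.670), and was found in 14.7% of KO and 27.6% of flox barcodes. Spp1 had 57 UMIs in KO and 145 in flox, a ratio of 0.544 (0.393 to 0.744). Its levels, 21.0 CPM in KO and 38.6 CPM in flox, lay below the 42.6 CPM of Spp1 in flox free RNA, while 9.33% of KO and 13.3% of flox cDC2 barcodes held it. One flox barcode that also passed the T gate held 56 of the 145 Spp1 UMIs, and in barcodes that passed exactly 1 gate the Spp1 ratio was 0.963 (0.609 to 1.51). The Spp1 call was also lost in female barcodes, at 0.804 (0.538 to 1.17), and stayed lower without the highest barcode, at 0.591 (0.393 to 0.873). The median log2 ratio was 0.31 in cDC1 and -0.13 in cDC2, against 0.02 and 0.05 for all genes.

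In NK cells, 4 of the 9 genes were measured and 1, Spp1, was called lower in KO, where 3.15% of all genes were; none was higher, where 3.53% were. Spp1 had 23 UMIs in 12 KO barcodes and 122 UMIs in 28 flox barcodes, a ratio of 0.162 (0.0992 to 0.255). The richest barcodes held 7 UMIs in KO and 26 in flox, and without them the ratio was 0.143 (0.0789 to 0.245). No Spp1 UMI of either NK gate came from a barcode also in the macrophage gate. Spp1 was present in 4.35% of KO and 13.3% of flox NK barcodes, above the B-gate shares in both. Its level was 10.8 CPM in KO, below the 42.6 CPM of Spp1 in flox free RNA, and 66.6 CPM in flox, above it. Cst7 had 291 UMIs in KO and 282 in flox NK cells, a ratio of 0.888 (0.752 to 1.05), and Cd9 a ratio of 1.05 (0.927 to 1.18). The median log2 ratio was -0.13, against 0.01 for all genes.

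In T cells, 6 of the 9 genes were measured, 2 were called lower in KO and 1 higher, where 4.76% of all genes were lower and 3.27% higher. Cd9 had 315 UMIs in 215 KO barcodes and 652 UMIs in 297 flox barcodes, a ratio of 0.425 (0.370 to 0.486), with at most 9 UMIs in any KO and 16 in any flox barcode. It was found in 12.9% of KO and 21.6% of flox T barcodes, and in 5.83% of KO and 9.75% of flox B barcodes. Its T-gate levels, 21.6 CPM in KO and 50.8 CPM in flox, lay below the 118 CPM of Cd9 in flox free RNA, whose part in the ratio was not tested. Spp1 had 8 UMIs in 4 KO barcodes and 107 UMIs in 21 flox barcodes, a ratio of 0.0657 (0.0277 to 0.134). Of the 107, 56 came from the flox barcode also in the cDC2 gate and 14 from a flox barcode also in the cDC1 gate, each with 2 Cd3d and Cd3e UMIs. Without the highest barcode of each library, but with the cDC1-gate barcode still counted, the ratio was 0.0689 (0.0181 to 0.188). A Spp1 UMI was present in 0.241% of KO and 1.52% of flox T barcodes, close to the B-gate shares. The richest flox barcodes held 56, 14, 10 and 6 UMIs. The T-gate levels, 0.548 CPM in KO and 8.34 CPM in flox, lay below the 42.6 CPM of Spp1 in flox free RNA. The part of free RNA in the ratio was not tested.

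Gpnmb was the T-gate gene called higher, with 43 UMIs in KO and 13 in flox, a ratio of 2.91 (1.53 to 5.89). A single KO barcode held 30 of the 43 together with 10 RPE marker UMIs, and without barcodes of 5 or more RPE marker UMIs the ratio was 0.881 (0.376 to 2.06), the other way. Cst7 had a ratio of 1.03 (0.947 to 1.13) on 1092 UMIs in KO and 928 in flox, beside 14.1 in the macrophage gate; the difference between gates was not tested. The median log2 ratio was -0.01, against 0.02 for all genes.

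In the B gate 1 of 4 measured genes, Cd9, was called lower in KO, where 5.71% of all genes were, and none higher, where 2.04% were. Its ratio was 0.585 (0.478 to 0.715), on 182 UMIs in KO and 218 in flox. Over all kept barcodes, 2 of the 9 genes were called higher in KO, where 3.7% of all genes were, and 2 lower, where 5.6% were. Gas6 was higher at 5.29 (3.03 to 9.88) and Gpnmb at 1.62 (1.15 to 2.31), and Spp1 was lower at 0.353 (0.312 to 0.399) and Axl at 0.620 (0.532 to 0.722). These totals also depend on how many UMIs each gate contributed. Among barcodes in no gate, 2 of 6 measured genes were called lower in KO, where 6.24% of all genes were, and none higher, where 12.7% were: Spp1 at 0.426 (0.270 to 0.653) and Axl at 0.2003 (0.0874 to 0.406).

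Other genes of the pathway, from lists chosen with earlier results of these data known, were measured in the macrophage gate. Of 17 phosphatidylserine receptors, 9 were measured, 1 was higher in KO and 3 lower, where 9.6% of all genes were higher and 7.49% lower, with a median log2 ratio of 0.02 against 0.03 for all genes. Stab1, a scavenger receptor of sinusoidal endothelium and tissue macrophages that binds phosphatidylserine, had 141 CPM in KO and 19.5 CPM in flox, a ratio of 7.26 (4.25 to 13.2). The 3 lower receptors were Cd300lf, an inhibitory receptor that binds phosphatidylserine, at 0.515 (0.321 to 0.809), Scarb1, a lipoprotein receptor, at 0.560 (0.316 to 0.962), and the integrin subunit Itgav, at 0.627 (0.462 to 0.844).

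**Figure D4:**
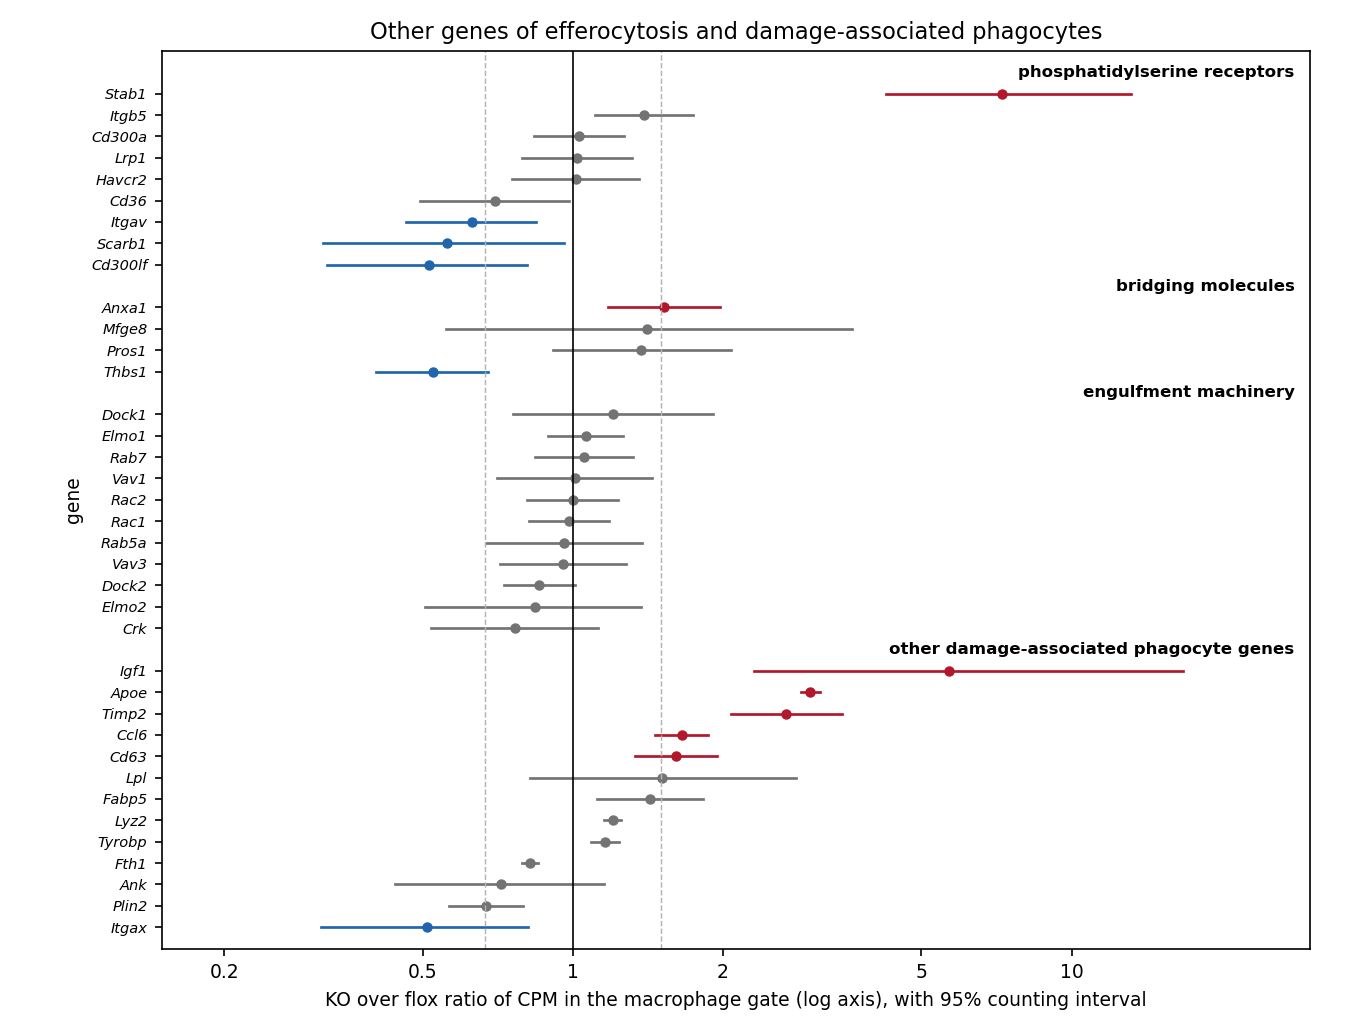
Ratio of KO over flox CPM (log axis) in the macrophage gate for the genes of 4 lists, with 95% counting intervals, in red where called higher, blue where called lower and grey otherwise; dashed lines mark 1.5-fold. The engulfment genes lie between 0.766 and 1.20, while Stab1, Igf1, Apoe and Timp2 lie to the right.

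Of 4 bridging molecules, Anxa1 was higher at 1.52 (1.17 to 1.97) and Thbs1, which links dying cells to Cd36 and the Itgav integrin, was lower at 0.524 (0.404 to 0.677). Pros1, the other ligand of the Gas6 receptors, had a ratio of 1.37 (0.913 to 2.07), and Mfge8 of 1.41 (0.557 to 3.64). Of 13 genes of the engulfment machinery, 11 were measured and 0 were called, for example Elmo1 at 1.06 (0.891 to 1.26) and Elmo2 at 0.838 (0.506 to 1.37); their median log2 ratio was -0.03. Of 14 genes of phagosome digestion, all measured, 3 were higher and 0 lower, with a median log2 ratio of 0.25, against the same shares and median of all genes. Among them were the lysosomal protease Ctsd at 1.81 (1.64 to 1.99) and the cholesterol exporter Npc1 at 1.89 (1.01 to 3.61).

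Of 14 other damage-associated phagocyte genes, 13 were measured, 5 were higher in KO and 1 lower, where 9.6% of all genes were higher and 7.49% lower. Their median log2 ratio was 0.51, against 0.03 for all genes. Igf1, a growth factor, had 29 UMIs in KO and 6 in flox, a ratio of 5.67 (2.31 to 16.7). Apoe, the lipid carrier, had 10195 CPM in KO and 3410 CPM in flox, a ratio of 2.99 (2.86 to 3.12), and Timp2, a metalloproteinase inhibitor, had a ratio of 2.67 (2.07 to 3.47). Itgax, which encodes CD11c and is a marker of damage-associated microglia in mouse, was lower at 0.511 (0.312 to 0.815). The other called genes were Ccl6 at 1.65 (1.46 to 1.87) and Cd63 at 1.61 (1.33 to 1.95), named after their values were seen.

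Of 6 genes of Trem2 and Clec7a signalling, all measured, none was called: the adaptor Tyrobp had a ratio of 1.16 (1.09 to 1.24) and the kinase Syk of 1.20, beside the 2.40 of Trem2. Of 6 osteopontin receptors, 5 were measured and Itgav was the 1 called, lower as above, with Cd44 at 1.24 (1.08 to 1.43). Of 3 tetraspanin partners of Cd9, 2 were measured, and Cd81 was higher at 2.65 (2.29 to 3.08). Of 3 cathepsins listed as cystatin F targets, none was called, with Ctsc at 0.763 (0.683 to 0.853) and Ctsh at 1.17 (1.03 to 1.33).

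The counts below are for the 6 gates other than macrophage and B, to be read beside the shares of all genes called in each gate, given above. The engulfment list had 1 call there, Dock1 lower in T at 0.220 (0.0535 to 0.681), and the signalling list had none; Dock1 was also lower in the B gate, at 0.436 (0.262 to 0.714). Among phosphatidylserine receptors, classical monocytes had 1 higher, Stab1 at 3.25 (2.101 to 5.14), and 1 lower, Scarf1 at 0.514 (0.286 to 0.891). In cDC1 there were 2 higher, Cd300lf at 2.69 (1.63 to 4.53) and Cd300a at 1.51 (1.302 to 1.74), and 1 lower, the scavenger receptor Cd36 at 0.459 (0.315 to 0.656). In cDC2 the integrin subunit Itgb5 was lower at 0.381 (0.217 to 0.641). In NK cells Cd300a was higher at 3.50 (1.97 to 6.63) and Itgb3 lower at 0.377 (0.186 to 0.726). In T cells 3 were lower, namely Stab2 at 0.508, Cd300lf at 0.423 and Itgb5 at 0.611.

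The other damage-associated genes had 2 called higher and 1 lower in classical monocytes. The tetraspanin Cd63 was at 12.02 (6.61 to 24.0) there, on 111 UMIs in KO and 12 in flox, in the gate where 2 KO barcodes carried RPE markers, whose part in the result was not tested. Lpl, a lipase, was at 1.501 and Itgax at 0.655. In nonclassical monocytes Fabp5, a fatty acid carrier, was lower at 0.556 (0.492 to 0.629). In cDC1 Apoe was higher at 1.64 and Timp2 at 2.12, and Fabp5 lower at 0.123, while in cDC2 Lpl was higher at 2.57 and Timp2 at 1.54, and Apoe lower at 0.650. Apoe was higher in NK cells, at 10.7 (6.52 to 18.7) on 211 UMIs in KO and 17 in flox, and in T cells at 1.96 (1.74 to 2.21). NK cells also had Plin2 at 2.23 and Ccl6 at 1.90 higher and Cd63 at 0.0410 lower, and T cells Csf1 at 2.60 higher and Timp2 at 0.624 lower.

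Of the remaining lists, Pros1 was higher in cDC1 at 1.64 (1.10 to 2.45), and in T cells Mfge8 was higher at 1.68 (1.25 to 2.28) and Thbs1 lower at 0.300. The digestion list had 2 calls outside macrophages, Ctss at 1.59 and Grn at 1.72, both higher in NK cells. Cd44, an osteopontin receptor, was higher in cDC1 at 1.69 (1.503 to 1.90). The Cd9 partner Cd81 was higher in classical monocytes at 2.31 (1.69 to 3.19) and in cDC2 at 2.19 (1.01 to 4.95), and lower in cDC1 at 0.433 (0.241 to 0.741), and Ptgfrn was lower in T cells at 0.482. No cystatin F target was called in these gates.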

How the data were processed

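The authors' deposited matrices hold raw UMI counts per gene and barcode. Per the submitters' processing notes, reads were processed with Cell Ranger on mm10; per the file headers, the KO matrix was written by version 7.0.1 and the flox matrix by version 4. Per the labels' protocols, viable CD45+ cells were sorted after collagenase and dispase digestion and 3' libraries of the v2 kit were made, a kit version that is in doubt because the flox matrix lists more barcodes than that kit's list should hold; the flox matrix also holds near-empty barcodes, the KO matrix only barcodes of at least 500 UMIs.

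Barcodes with at least 1000 UMIs and under 10% mitochondrial UMIs were kept, and the gates were classical monocyte (F13a1 and Chil3, at least 3 UMIs), nonclassical monocyte (Cd300e and Adgre4, 2), cDC1 (Xcr1 and Clec9a, 2), cDC2 (Cd209a and Clec10a, 2), NK (Ncr1, 1, with no Cd3d or Cd3e), T (Cd3d and Cd3e, 2) and B (Cd79a and Cd79b, 2, with no Cd3d or Cd3e). UMIs were summed per gate and library and divided by the gate's total. Intervals at 95% are exact Poisson (levels), conditional binomial (ratios) and Clopper-Pearson (shares). A count of 0 is bounded by 3 counts. Log2 ratios had 0.5 UMIs added. No p-value was computed. Scrublet (in scanpy 1.11.5) called 56 KO (1.41%) and 24 flox (0.702%) barcodes as doublets, which were kept, with removal as an alternative. Scripts ran in Python 3.11.15 with numpy 2.4.6, scipy 1.17.1 and pandas 2.3.3, and the calling rule was checked on simulated counts. Positions are from GENCODE for mm10, promoters from RefSeq.

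The members and lists were chosen with earlier results of these data known. From the lists, called genes are named, up to 4 per list and gate by size of ratio, otherwise the first 2 in list order. Other settings were 2 UMI minima, 2 mitochondrial limits, doublets removed, exactly 1 gate, gates raised by 1 UMI, thinning to 1000 UMIs, median ratio scaling, mean CPM per cell, no UMI minimum for genes, 2 UMIs added, each sex alone and the highest barcode left out. Leaving out barcodes with 5 or more RPE marker UMIs, and macrophage-gate barcodes from other gates, was chosen after seeing the data. A few results are not reported here.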

Additional observations from a re-analysis of the deposited data

Results flagged for a closer look

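Axl was flagged because its called ratios went opposite ways in the dendritic cell gates, with a log2 ratio of KO over flox of 2.22 in cDC1 and -1.08 in cDC2; the difference was not tested, and 25 KO and 30 flox barcodes passed both gates. Lgals3 was flagged because female and male barcodes moved in opposite directions, each beyond counting error, in 2 gates. In nonclassical monocytes its log2 ratio was 0.077 in female and -0.35 in male barcodes, and in cDC2 it was 0.72 in female and -0.20 in male barcodes. These differences between sexes were not tested, and all 4 values came from 1 library per genotype.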

How the results depend on the processing

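No paired analysis was possible because each group is 1 library with no replicate number to pair. Over the 7 gates, 15 gene ratios were called. Of their 215 values under other settings, 205 were still called in the same direction and 2 were reversed. Of the 205, 15 came from dropping the UMI minimum for genes and 15 from adding 2 UMIs. Neither setting could change a call, because every called gene already had 20 UMIs and the called ratios and intervals were computed without added UMIs. The first reversed value was Spp1 in female barcodes of the macrophage gate (log2 ratio 1.86), where 1 KO barcode held 57 of 62 KO UMIs. The second was Gpnmb in T cells without barcodes of 5 or more RPE marker UMIs (-0.18), where 1 KO barcode held 30 of 43 UMIs. A gene under 20 UMIs in a setting had no value, so the 215 leave out called ratios that could not be measured again. Thinning to 1000 UMIs left 3 of the 15 with a value, of which 2 were still called, and male barcodes left 3, of which 2 were. Female barcodes left 11, of which 9 were still called, and barcodes in exactly 1 gate left 12, of which 11 were. Of 115 median log2 ratios under other settings, 106 stayed within the counting range. For the macrophage gate the median of 1.11 became -0.30 with barcodes thinned to 1000 UMIs, where 4 genes had 20 UMIs left, 1.57 with the mean CPM per cell, 1.74 in female and 0.47 in male barcodes. The count of genes called higher there, 5, became 1 after thinning and 1 in male barcodes, and the count called lower, 1, became 2 in barcodes of exactly 1 gate, 2 with the mean CPM per cell and 0 in female barcodes. The cDC1 median of 0.31 became 0.77 in female and -0.31 in male barcodes. The NK median of -0.13 became -0.53 in barcodes of exactly 1 gate, -0.43 in female and 0.16 in male barcodes. Apart from thinning, which leaves fewer genes measured, and the sex splits, which leave fewer barcodes, the cause was not tested. Depth limits Gpnmb, Mertk and Gas6 most, which had under 100 UMIs per library over all kept barcodes.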
